A study of Mus musculus with 24 samples.

Results

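The effect of losing the vitamin D receptor was set side by side in 2 brain regions of the same mice, the ventral tegmental area (VTA) and the nucleus accumbens, after an injection of PBS. Of the 24 mRNA libraries, the 12 from PBS mice were used: wild-type mice 1, 2 and 3 and Vdr-/- mice 7, 8 and 9, each with 1 library of each region. All mice were on a C57BL/6 background. Whether the wild-type mice were littermates of the Vdr-/- mice is not given in the text used here. Whether the genotypes also differed in DNA outside Vdr was not examined. The Vdr-/- mice lacked the receptor in every tissue and had been raised on a rescue diet rich in calcium, lactose and phosphate, and no such diet is given for the wild-type mice, so genotype and diet cannot be told apart. Frozen bilateral micropunches had been taken 90 min after the intraperitoneal injection. For each gene the level in the nucleus accumbens minus that in the VTA was taken within each mouse on the log2 scale, and these differences were compared between genotypes. A gene whose difference shifted with genotype would have a Vdr effect that differed between the regions, and a gene that passed the test in both regions in the same direction was taken as shared.

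The vitamin D receptor is a nuclear receptor that binds the hormonal form of vitamin D, pairs with a retinoid X receptor and binds DNA at short repeated elements near its target genes. The VTA holds the cell bodies of dopamine neurons, which make dopamine with tyrosine hydroxylase (Th) and carry the dopamine transporter (Slc6a3). Their axons reach the nucleus accumbens, where most neurons are GABAergic medium spiny neurons with dopamine D1 or D2 receptors. Opioids act on this circuit, and the pair of regions therefore holds the sending and the receiving end of the same pathway.

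Reads on genes ran from 11628792 to 30184172 per library, and the 10 most abundant genes took 8.16% to 9.91% of them. The nucleus accumbens library of wild-type mouse 2 stood apart from the rest. Its genes lay a median of 0.208 (log2) from the median of the other libraries of its region, against 0.0962 to 0.149 for the other PBS libraries. Its deviations ran with GC content (Spearman correlation 0.391 over genes) and against transcript length (Spearman correlation -0.312). In the VTA, dopamine neuron markers differed widely between the Vdr-/- libraries, as described beside the results that they touch. Vdr itself was near the limit of detection. Its normalized values were 14.7, 1.43 and 5.03 in the wild-type nucleus accumbens and 5.58, 10.3 and 5.54 in the Vdr-/- one, and 9.91, 11.1 and 1.82 and 7.79, 4.83 and 11.2 in the VTA. These groups overlapped in both regions, at 1 to 17 reads per library, so the gene-level values did not check the genotype. Which parts of the gene these reads came from was not examined.

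The clearest shared change concerned alpha-tubulin, the protein that pairs with beta-tubulin to build microtubules. Tuba1a, Tuba1b and Tuba1c encode nearly the same protein and lie side by side on chromosome 15, and the mouse genome also holds processed pseudogenes, copies made from reverse-transcribed tubulin mRNA. How much sequence they share decides what a read can tell about each gene, and the copies here were Gm14150, Gm3756 and Gm3226. Over 1047 aligned windows of 100 bases of the Tuba1b coding sequence, Tuba1c and the 3 copies together differed from Tuba1b by a median of 4 bases, and in 83.6% of windows at least 1 of them was identical to it. Of the words of 25 bases in Tuba1c, 65.1% also occurred in another gene, and the share was 83.6% in Gm14150, 84.8% in Gm3756 and 90.8% in Gm3226. The median over 16917 genes tested was 1.16%, and 5.23% of genes reached 50%. Each copy shared more of its words with Tuba1b than with Tuba1c. The shares were 76.3% and 68.0% for Gm14150, 69.5% and 62.7% for Gm3756, and 78.9% and 74.0% for Gm3226. The authors counted reads per gene with the GeneCounts option of STAR. How many reads fell in shared stretches cannot be seen in the deposited values, so the single levels of these genes are uncertain.

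Tuba1c was low in wild-type mice and high in Vdr-/- mice, in both regions. Its normalized values in the nucleus accumbens were 13.7, 15.7 and 14.4 in wild-type mice 1, 2 and 3 and 422, 394 and 383 in Vdr-/- mice 7, 8 and 9. In the VTA they were 12.4, 24.5 and 22.8 against 770.4, 876 and 738. No library of one genotype came near those of the other. Tuba1c rose by 4.69 (log2, SE 0.12) in the nucleus accumbens and by 5.30 (SE 0.24) in the VTA, with adjusted p values of 1.97e-05 and 8.83e-05 (limma, Benjamini-Hochberg). The effect in the nucleus accumbens minus that in the VTA was -0.62, with a 95% interval of -1.19 to -0.05 and an adjusted p of 0.864 (limma), so the regions were not shown to differ.

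The 3 pseudogene copies followed. Gm14150 had values of 2.10, 5.71 and 5.03 in the wild-type and 114, 98.5 and 76.6 in the Vdr-/- nucleus accumbens, and 6.61, 8.92 and 9.10 against 232, 227 and 236 in the VTA. Gm3756 went from 1.05, 2.86 and 5.75 to 90.2, 83.1 and 88.6 in the nucleus accumbens and from 10.7, 11.1 and 10.9 to 197, 158 and 166 in the VTA. Gm3226 went from 9.47, 9.9973 and 9.34 to 87.4, 116 and 71.1 and from 26.4, 30.1 and 23.7 to 198, 227 and 219. Each copy was separated between the genotypes in both regions, and each was about as far apart in one region as in the other. The log2 effects in the nucleus accumbens and the VTA were 4.26 and 4.67 for Gm14150, 4.55 and 3.86 for Gm3756, and 3.10 and 2.96 for Gm3226, and the interval of the region difference held 0 for all 3.

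The 2 abundant alpha-tubulin genes lay lower in Vdr-/- mice. Tuba1b had values of 6841, 6793 and 6210.3 in the wild-type and 4692, 4349 and 4614 in the Vdr-/- VTA and fell by 0.54 (log2, SE 0.05, adjusted p = 0.012, limma). In the nucleus accumbens it had 2104, 2722 and 2589.7 against 1988, 2061 and 1847, a difference of -0.32 that did not pass (adjusted p = 0.482, limma). Tuba1a fell by 0.42 in the VTA (log2, adjusted p = 0.0176, limma) and differed by -0.25 in the nucleus accumbens (adjusted p = 0.512, limma). Summed over Tuba1a, Tuba1b, Tuba1c and the 3 copies, the normalized value was 12270 ± 963 (SD, n = 3) in the wild-type and 10861 ± 622 in the Vdr-/- nucleus accumbens, where the libraries overlapped, and 21805 ± 595 and 17284 ± 349 in the VTA, where they did not. Tuba1c and the 3 copies together rose 21.3-fold in the nucleus accumbens and 21.5-fold in the VTA. Their share of the sum of all 6 went from 0.257% to 6.22% and from 0.302% to 8.18%. They gained 643 and 1349, while the sum of all 6 fell by 1409 in the nucleus accumbens and fell by 4521 in the VTA, so the gain was smaller than the loss from Tuba1a and Tuba1b. Tuba1a, Tuba1b and Tuba1c lie 1.02 to 1.12 Mb from the start of Vdr, and Tuba1c and Olfr287 were the called genes within 5 Mb in the nucleus accumbens, joined by Tuba1a and Tuba1b in the VTA, of 124 and 133 genes tested there. The median log2 effect of those neighbours was -0.02 and 0.01.

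In all, 11 of 15933 genes (0.069%) passed the test in the nucleus accumbens, 7 of them higher in Vdr-/- mice (0.0439%) and 4 lower (0.0251%), and 64 of 16425 (0.39%) in the VTA, 42 of them higher (0.256%) and 22 lower (0.134%). The genes that passed in both regions in the same direction numbered 9, which is 0.0585% of the 15396 genes tested in both, 81.8% of the calls in the nucleus accumbens and 14.1% of those in the VTA. Besides the 4 tubulin genes they were Gabra2, Rpl3-ps1, Tmem181b-ps, Gm15446 and Olfr287. With 1 mouse left out at a time, 2 (without Vdr-/- mouse 8) to 7 (without wild-type mouse 2) of these 9 still passed in both regions, Tuba1c every time. The calls then numbered 2 (without mouse 8) to 28 (without mouse 2) in the nucleus accumbens and 13 (without mouse 2) to 370 (without mouse 8) in the VTA. Over all genes tested, the genotypes did not overlap in 16.9% in the nucleus accumbens and in 20.5% in the VTA, so separation alone was common.

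Gabra2 encodes the alpha 2 subunit of the GABA-A receptor, the chloride channel that GABA opens. It was the shared gene with the least sequence in common with other genes (2.77% of its 25-base words). In the nucleus accumbens its normalized values were 1797, 1931 and 1751 in wild-type and 3322, 3631 and 3657 in Vdr-/- mice, and in the VTA 1068, 1059 and 1192 and 2463, 3160.1 and 2530.3. Every Vdr-/- library lay above every wild-type library of its region. Gabra2 rose by 0.95 in the nucleus accumbens (log2, SE 0.07, adjusted p = 0.00859, limma) and by 1.29 in the VTA (SE 0.10, adjusted p = 0.00238), ratios of 1.94 and 2.46 between the group means. The region difference of -0.34 had an unadjusted p of 0.0499 and an adjusted p of 0.864 (limma), and is not a call.

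The other 4 are a pseudogene of a ribosomal protein gene, a pseudogene of a transmembrane protein gene, a predicted zinc finger gene and an olfactory receptor gene, each with close copies elsewhere. Rpl3-ps1, on chromosome X, shares 93.9% of its 25-base words with Rpl3. Its values were 75.7, 84.3 and 64.7 against 593, 366 and 379 in the nucleus accumbens and 88.4, 90.3 and 81.0 against 816, 443 and 434 in the VTA, and in both regions mouse 7 had the highest value. It rose by 2.53 and 2.63 (log2). Tmem181b-ps, on chromosome 17, was far more abundant, with 1815, 1462 and 1879 against 5387, 5259 and 5605 in the nucleus accumbens and 800.2, 718 and 788 against 2558, 2577 and 2589 in the VTA. It rose by nearly the same amount in both, 1.66 and 1.74, with a region difference of -0.08 (95% interval -0.34 to 0.18).

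Gm15446 and Olfr287 were the shared genes that fell. Gm15446, on chromosome 5, went from 551, 437 and 539 to 1.86, 5.13 and 6.46 in the nucleus accumbens and from 502, 500.4 and 493 to 0, 9.66 and 3.28 in the VTA, so that almost no reads were left in Vdr-/- mice. Its log2 effects of -6.64 and -7.13 depend on the pseudocount of 1 at such low values, and without mouse 7 or mouse 8 the VTA effect was -6.21 or -7.92. Olfr287, 0.31 Mb from the start of Vdr, had 42.1, 37.1 and 38.1 against 0, 1.03 and 1.85 in the nucleus accumbens and 175, 148 and 150.2 against 36.7, 27.4 and 29.5 in the VTA. Its groups were apart in both regions, but the Vdr-/- VTA libraries kept reads that the nucleus accumbens libraries hardly had. The log2 effects were -4.48 and -2.31, and their difference of -2.17 (95% interval -3.35 to -0.996, unadjusted p = 0.00402, limma) failed the adjustment (0.864) and rests on values of 0 to 1.85 in the Vdr-/- nucleus accumbens.

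**Figure D1:**
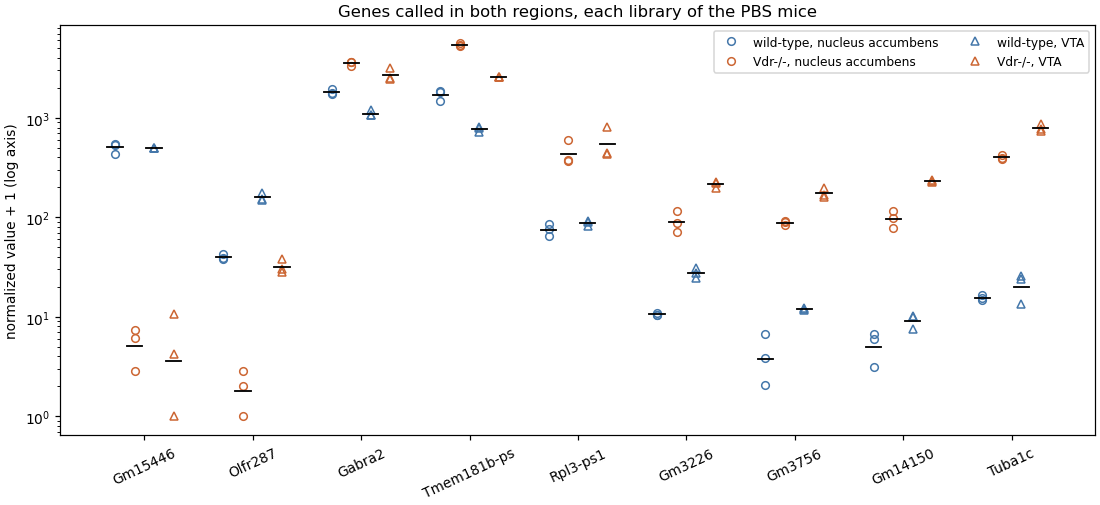
Normalized value + 1 on a log axis of the 9 genes that passed in both regions, in each library of the PBS mice, with circles for the nucleus accumbens, triangles for the VTA and black bars at the mean of the log values. Blue wild-type and orange Vdr-/- libraries do not overlap in any of the 9, and 7 genes are higher and 2 lower in Vdr-/- mice.

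The same genes were then read in the morphine libraries (5 mg/kg) of 6 other mice, which the labels number alike in both regions. All 9 passed there in the nucleus accumbens in the same direction, where 30 of 15638 genes (0.192%) were called, and 6 of them in the VTA, where 10 of 16029 (0.0624%) were called, and all 9 had the same direction in both. Tuba1c differed by 6.07 and 5.77 (log2) in the nucleus accumbens and the VTA of morphine mice, Gabra2 by 0.95 and 1.19, and Olfr287 by -4.20 and -2.78. Gabra2 was thus again somewhat further apart in the VTA, and Olfr287 in the nucleus accumbens, though neither difference was tested in morphine mice.

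A test on the mean of both regions within each mouse gave a further view, though a mean can pass on one region alone. It called 33 of 16331 genes (0.202%), 20 higher (0.122%) and 13 lower (0.0796%) in Vdr-/- mice. They included the 9 shared genes, 2 genes called in the nucleus accumbens alone, 12 called in the VTA alone and 10 called in neither region. All 33 had the same sign in both regions, and in 6 the region difference had an unadjusted p under 0.05. Cdkn1a was among the 33 with 0.33 (log2) in the nucleus accumbens (adjusted p = 0.461, limma) against 1.62 in the VTA. Wdfy1, an endosomal protein, had 382, 307 and 357 against 578, 566 and 644 in the nucleus accumbens and 414, 434 and 431 against 954, 918 and 939 in the VTA and rose by 0.96 (log2) on the mean of both. Cd59a, which shields cells from complement, had 134, 85.7 and 87.6 against 235, 229 and 225 and 357, 405 and 379.6 against 656, 701 and 710.0 and rose by 1.02. Ndn encodes necdin, a growth suppressor expressed from the paternal allele. Its values were 1476, 1644 and 1236 against 2663, 3247 and 2887 in the nucleus accumbens and 4633, 4685 and 3939 against 7129, 5837 and 6524 in the VTA, a rise of 0.79. In each of these 3 genes both regions kept the genotypes apart.

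Among the genes that fell on the mean of both regions were Nes, the intermediate filament nestin, and Aim2, a sensor of DNA in the cytosol. Nes fell by 0.83 and Aim2 by 1.17, with effects of -1.17 and -1.17 in the nucleus accumbens and the VTA for Aim2. Further genes that rose were Dynlt1b, a dynein light chain (1.41, with 85.1% of its 25-base words in its tandem copies), Scand1 (1.10), Sult1a1, a sulfotransferase (1.04), and Tma16 (0.73), and Lag3, an immune checkpoint receptor, fell by 0.79. In the morphine mice 28 of the 33 had the same direction in both regions, 12 were called in at least 1 region and 7 in both. Cd59a was called in both, at 1.17 and 0.94, whereas Ndn was on the other side of 0 there, at -0.41 and -0.39.

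**Figure D2:**
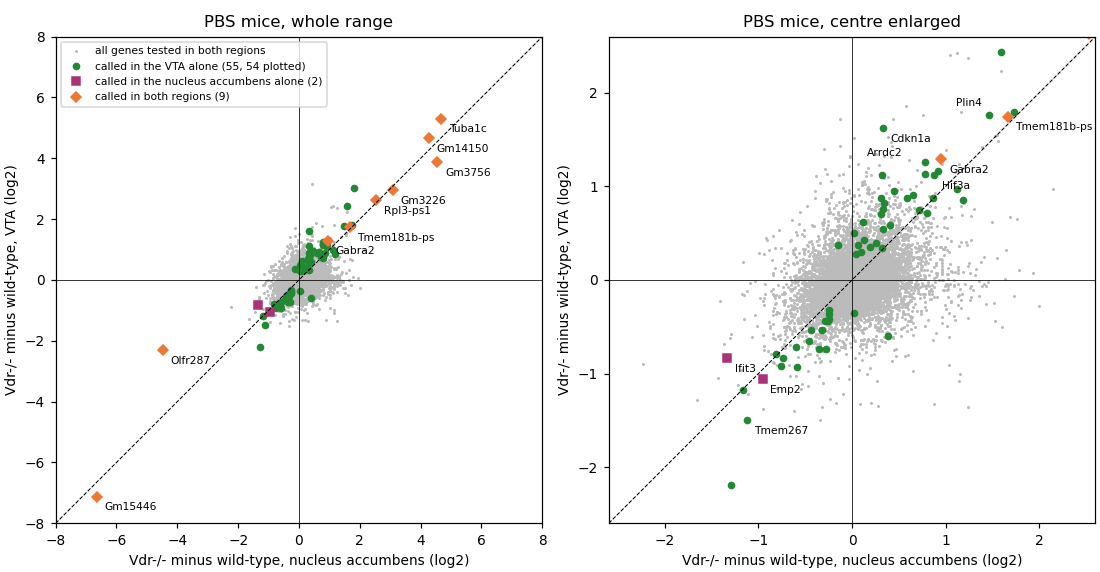
Vdr effect in the VTA against that in the nucleus accumbens (Vdr-/- minus wild-type, log2), 1 point per gene tested in both, over the whole range and with the centre enlarged; the dashed line marks equal effects. The 9 genes called in both regions lie along that line, apart from Olfr287, which fell further in the nucleus accumbens (-4.48 against -2.31), and most of the 54 plotted genes called in the VTA alone lie on the same side of 0 in both regions.

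The genes called in 1 region were next asked whether the other region differed from it. In the nucleus accumbens alone, Emp2 and Ifit3 passed, both lower in Vdr-/- mice. Emp2, a tetraspan membrane protein, had 445, 414 and 427 against 216, 201 and 247 in the nucleus accumbens and 335, 371 and 451 against 120.2, 254 and 201 in the VTA. It was lower in every Vdr-/- library of both regions, and its effects of -0.96 (adjusted p = 0.0356, limma) and -1.06 (adjusted p = 0.165) were alike in size, with a region difference of 0.10 (95% interval -0.66 to 0.86). Ifit3, an interferon-induced gene that shares 66.1% of its 25-base words with Ifit3b, had 105, 95.7 and 97.7 against 34.4, 41.0 and 41.5 and 207, 152 and 195 against 127, 87.0 and 97.1. Its effects were -1.33 and -0.83, and the interval of the region difference, -1.08 to 0.07, held 0. Of 21 interferon-stimulated genes tested in the nucleus accumbens, Ifit3 was the one that passed, and the list's median was -0.05.

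In the VTA alone, 55 genes passed, 35 higher and 20 lower. Of the 54 also tested in the nucleus accumbens, 51 had the same direction there and 38 an unadjusted p under 0.05 in that direction (8.94% of all genes had one in either direction). Their median absolute effect was 0.75 (log2) in the VTA, and in the same direction 0.38 in the nucleus accumbens. Genes chosen for passing in one region have an effect there that is on the high side, so these medians are a description. None of the 55 passed the test of the region difference, 16 had an unadjusted p under 0.05 in it, and in 39 the 95% interval held 0. The genes with the opposite direction in the nucleus accumbens were Vwc2l, Doc2b and Hmgcs1. In the morphine VTA, 42 of the 55 had the same direction, 17 with an unadjusted p under 0.05, and 3 were called.

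The largest of these effects were in Gm25911 and Gm23935, short genes annotated as miRNAs, which rose by 3.01 and 2.43 (log2) in the VTA and differed by 1.81 and 1.59 in the nucleus accumbens. Gm23935 had 12231, 6590.5 and 4471 against 29235, 47271 and 41237 in the VTA, and all of its 25-base words occur in other genes. Gm16299, annotated as antisense, fell by 2.19 in the VTA and had -1.29 in the nucleus accumbens. Klrg2, a lectin-like receptor gene, had 9.08, 10.031 and 11.8 against 49.0, 35.4 and 58.4 in the VTA and 0.923 to 4.10 in every library of the nucleus accumbens, too low to be tested there. Plin4, which coats lipid droplets, rose by 1.80 and had 1.73 in the nucleus accumbens, with a region difference of -0.07 (95% interval -0.57 to 0.43). Tmem267 fell by 1.49 and had -1.13 in the nucleus accumbens.

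The direct test of the region difference called 0 of 16331 genes (0%) by limma with Benjamini-Hochberg adjustment, and the smallest adjusted p was 0.864. At an unadjusted p under 0.05 there were 904 (5.54%). edgeR on the recovered reads also called 0, and DESeq2 called 3 (Ndnf, Cdkn1a and Arl4d). The 95% interval of the difference had a median half-width of 0.40 on the log2 scale, a 1.32-fold change, and 1.08 at the 90th percentile. These intervals are not adjusted for the number of genes, and a call needed a difference larger than the half-width. Even the smallest unadjusted p, 0.000258, had an adjusted p of 0.864 (limma). For many genes a difference of that size, or a larger one, would not have been detectable with 3 mice per genotype. No gene was therefore shown by limma to have its Vdr effect in 1 region alone.

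The 10 genes with the smallest p are given as failing the adjustment. Cdkn1a encodes p21, an inhibitor of cyclin-dependent kinases. Its normalized values in the nucleus accumbens were 251, 249 and 261 in wild-type and 283, 339.5 and 337 in Vdr-/- mice, and in the VTA 273, 216 and 160.2 and 618, 617 and 727. The genotypes did not overlap in either region, but the step was far larger in the VTA. Within mice, log2 nucleus accumbens minus log2 VTA was -0.12, 0.20 and 0.70 in wild-type and -1.13, -0.86 and -1.11 in Vdr-/- mice, a difference of -1.29 (95% interval -1.83 to -0.75, unadjusted p = 0.00112, limma). Cdkn1a rose by 1.62 in the VTA (adjusted p = 0.0176) and had 0.33 in the nucleus accumbens (adjusted p = 0.461).

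Arl4d, a small GTPase, showed the same picture. It had 344, 307 and 299 against 327, 292 and 380.2 in the nucleus accumbens, where the genotypes overlapped, and 278, 294 and 175 against 574, 519 and 643 in the VTA, where they did not, with a region difference of -1.18 (95% interval -1.64 to -0.71). Pla2g3, a secreted phospholipase A2, had 72.6, 81.4 and 61.1 against 81.8, 86.2 and 99.7 and 130.5, 136 and 120.2 against 238, 274 and 345. It rose by 1.13 in the VTA (adjusted p = 0.0317, limma) and differed by -0.81 between the regions. The linker histone gene Hist1h1c varied together in both regions of a mouse, with 334, 154 and 218 and 231, 118 and 181 in the nucleus accumbens and 475, 197 and 266 and 487, 261 and 379.9 in the VTA, so the differences within mice, -0.50, -0.35 and -0.29 against -1.07, -1.14 and -1.07, were tight although neither region differed on its own. For 2900089D17Rik, an antisense transcript, these were 1.82, 1.52 and 1.52 against 0.71, 0.44 and 0.52, with the smallest p of all (0.000258, limma). That transcript had only 7 to 57 reads per library, and its region difference of -1.06 ran from -1.15 to -0.69 over the other settings. For Syde2, a GTPase-activating protein, the region difference was -0.72.

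The other 4 lay the opposite way, higher in the Vdr-/- nucleus accumbens relative to the VTA. Vwc2l, a secreted antagonist of bone morphogenetic proteins, had 166, 167 and 149 against 166, 269.8 and 206 in the nucleus accumbens and 748, 732 and 695 against 477, 528 and 439 in the VTA. It fell by 0.59 in the VTA (adjusted p = 0.0381, limma), had 0.38 in the nucleus accumbens, and differed by 0.98 between the regions. Armh4 had 275, 229.9 and 288 against 361, 410.3 and 334 and 987, 1021 and 1037 against 825, 896 and 766, the genotypes apart in opposite directions, with a region difference of 0.77 (95% interval 0.45 to 1.09). The predicted genes Gm38162 and Gm42528 differed by 1.01 and 0.95. Over all genes, 12.4% had differences within mice that did not overlap between the genotypes.

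**Figure D3:**
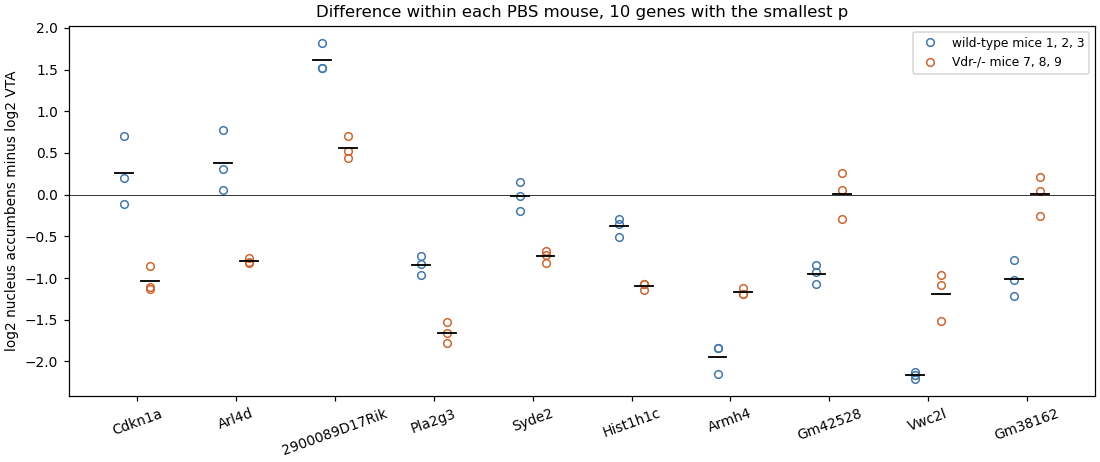
Level in the nucleus accumbens minus that in the VTA within each PBS mouse (log2 of the normalized value + 1), for the 10 genes with the smallest unadjusted p of the region difference, with blue wild-type and orange Vdr-/- mice and black bars at the group means. The genotypes do not overlap in any of the 10, which were chosen by this p, and none passes the adjustment (smallest adjusted p 0.864).

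Of the 64 VTA calls, 9 belong to a list of 24 glucocorticoid-responsive genes, which includes Nr3c1, the gene of the glucocorticoid receptor. The list was chosen with earlier results of these data known. Its counts beside the shares over all genes therefore describe the list and do not test it. Glucocorticoids are the adrenal steroids that rise with stress and with the time of day, and their receptor is, like the vitamin D receptor, a nuclear receptor. In the VTA, 23 of the 24 were higher in Vdr-/- mice and 9 passed, against 0.39% of all genes: Hif3a, Arrdc2, Cdkn1a, Nfkbia, Plin4, Sult1a1, Angptl4, Ddit4 and Map3k6. In the nucleus accumbens 19 of 24 were higher and 0 passed, with 15 at an unadjusted p under 0.05, against 8.94% of all genes; in the VTA 17 had one, against 14.2% of all genes. The median effect was 0.70 (log2) in the VTA and 0.39 in the nucleus accumbens, against -0.00 and 0.01 over all genes tested. The effect in the nucleus accumbens minus that in the VTA was negative in 23 of 24 genes, with a median of -0.27, and 8 had an unadjusted p under 0.05, but 0 passed. DESeq2, which called 0.433%, 1.86% and 0.0184% of all genes with an adjusted p in the nucleus accumbens, the VTA and the region difference, called 5, 14 and 1 of the list. The counts of edgeR were 0, 9 and 0 (0.42% of all genes in the VTA). Limma without a trend called 2 of the list in the VTA, where it called 0.104% of all genes. Without 1 mouse at a time the count there ran from 2 (without mouse 2) to 11 (without mouse 8). Over all genes those fits called 13 without mouse 2 and 370 (2.25%) without mouse 8.

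Hif3a, a hypoxia-inducible factor subunit, had 374, 381 and 305 against 581, 682 and 688 in the nucleus accumbens and 608, 619.7 and 587 against 1259, 1324 and 1359 in the VTA, apart in both regions. It rose by 1.12 in the VTA (log2, adjusted p = 9.76e-05, limma) and on the mean of both regions by 0.999 (adjusted p = 0.00251). Arrdc2, an arrestin-like protein, had 60.0, 97.1 and 53.9 against 109, 112 and 134 and 143, 169 and 131 against 336, 359 and 362, and rose by 1.26 in the VTA. Plin4 had 248, 150.0 and 144 against 462, 929 and 459 and 505, 488 and 389 against 1288, 2245 and 1399, highest in mouse 8 in both regions. Plin4 was about equally far apart in both regions, Hif3a and Arrdc2 somewhat further in the VTA, and Cdkn1a further still. All of these 4 rose in the VTA, whereas the list holds 5 genes below 0 in the nucleus accumbens, with 1 in the VTA. Fkbp5, a co-chaperone of the glucocorticoid receptor, had effects of 0.48 and 0.70 and rose on the mean of both regions (0.59, adjusted p = 0.035, limma). Sgk1, a kinase, had 0.69 and 1.17, and Nr3c1, the receptor's own gene, had -0.04 and -0.11. Per1 and Dusp1, which also answer to neuronal activity and other signals, had -0.14 and -0.43 in the nucleus accumbens and 0.36 and 0.39 in the VTA.

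Summed over the list, reads scaled by library size (CPM) were 2020 to 2211 in the wild-type and 2260 to 2345 in the Vdr-/- nucleus accumbens, and 2486 to 2734 and 3201 to 3376 in the VTA. The genotypes did not overlap in either region. In morphine mice the list was level, with 12 of 23 genes higher and a median of 0.01 in the nucleus accumbens, 15 of 23 and 0.08 in the VTA, and 0 called in either, where 7 and 5 of the 23 had an unadjusted p under 0.05. Leaving out any 1 mouse changed the number of VTA calls in the list from 9 to between 2 (without wild-type mouse 2) and 11 (without Vdr-/- mouse 8). Those fits called 13 and 370 genes of all genes tested. The median of the list's region difference stayed between -0.35 and -0.19.

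**Figure D4:**
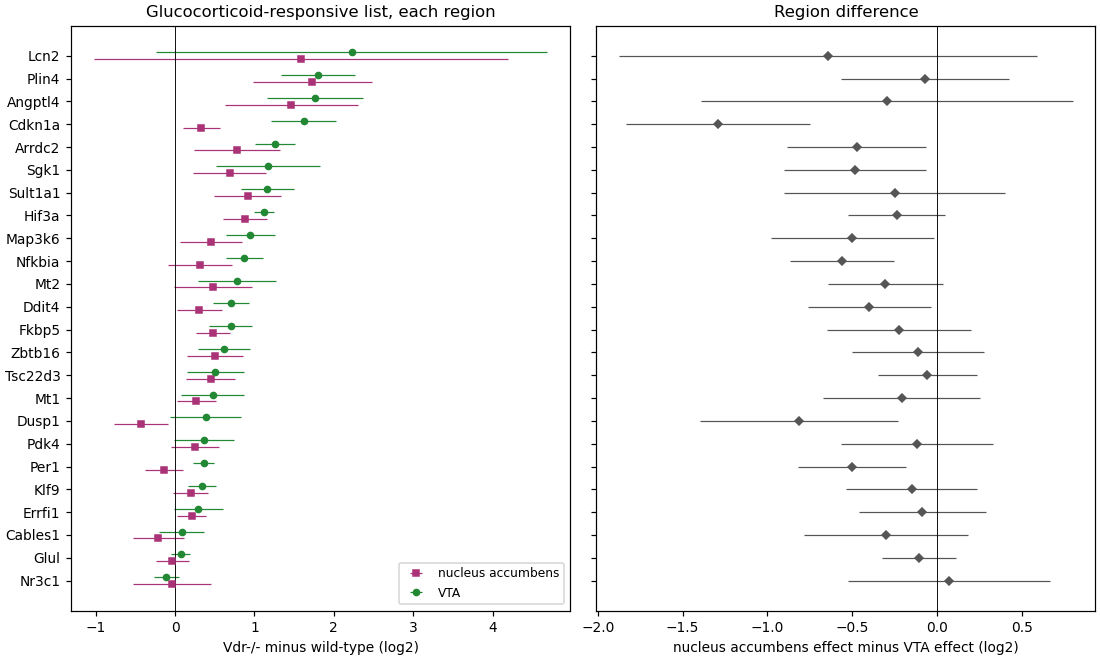
Vdr effect (Vdr-/- minus wild-type, log2) of the 24 genes of the glucocorticoid-responsive list in the nucleus accumbens (squares) and the VTA (circles), with the effect in the nucleus accumbens minus that in the VTA on the right; bars are 95% intervals of limma. In the VTA 23 of 24 lie above 0, and the region difference lies below 0 in 23 of 24, most with an interval that holds 0.

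The promoters of the called genes were searched, on both strands, in the 250 bases before each start (RefSeq, GRCm38.p6), for the glucocorticoid response element (GNACA and TGTNC around a spacer of 3 bases) and for the vitamin D response element, a pair of direct repeats with a spacer of 3 bases. The vitamin D element was found in 0.255% of 27025 genes with a promoter and in 0.198% of the 12115 tested genes with one. It was in 0 of 21 genes called on the mean of both regions and in 0 of 46 called in the VTA. An element this rare is missing from most sets of that size, so these counts of 0 say nothing about the called genes. The glucocorticoid element was found in 0.440% of all genes and 0.330% of the tested ones. It was in 0 of those 21 and in 2 of the 46, Map3k6 and Txnip, whose promoters are shown with the match in capitals. The window is short, and a match is a description of letters only. Map3k6, a stress-activated kinase, has it 181 to 169 bases before its start in chr4:133240568-133240817, plus strand. Txnip, which binds thioredoxin and is outside the list, has it 172 to 160 bases before its start in chr3:96557707-96557956, plus strand.
Map3k6: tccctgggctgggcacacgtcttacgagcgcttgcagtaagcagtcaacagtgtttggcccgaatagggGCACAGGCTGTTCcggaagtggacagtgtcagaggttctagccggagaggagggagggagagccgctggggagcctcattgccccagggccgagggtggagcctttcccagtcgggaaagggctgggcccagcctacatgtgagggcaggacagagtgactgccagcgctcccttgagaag
Txnip: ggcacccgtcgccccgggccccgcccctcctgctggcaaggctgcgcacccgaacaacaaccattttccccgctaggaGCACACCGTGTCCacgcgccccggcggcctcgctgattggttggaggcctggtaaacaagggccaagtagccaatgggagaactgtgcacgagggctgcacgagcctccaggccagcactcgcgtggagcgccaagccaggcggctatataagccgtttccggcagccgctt
Map3k6 had 85.2, 94.3 and 62.5 against 112, 109 and 107 in the nucleus accumbens and 109.8, 95.9 and 100.1 against 227, 169 and 201 in the VTA and rose by 0.95 there. Txnip had 409, 338 and 309 against 569, 451 and 640.5 and 566, 483 and 522 against 877, 899 and 1202 and rose by 0.91 in the VTA (adjusted p = 0.0418, limma). Both genes kept the genotypes apart in both regions. In the list, Mt1 and Sgk1 also held the element, 3 of 20 genes with a promoter.

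The genes that mark dopamine neurons gave a wide gap between the regions, and an unsteady one. In the VTA 24 of 25 were lower in Vdr-/- mice, with a median of -0.87 (log2), 16 at an unadjusted p under 0.05, against 14.2% of all genes, and 0 passing. The 16 became 3 without wild-type mouse 1, 4 without mouse 2, 9 without mouse 7, 6 in limma without a trend, 7 in DESeq2 and 10 in edgeR. The region difference was positive in 25 of 25, with a median of 0.95, 1 at an unadjusted p under 0.05 and 0 passing. That 1 was low among the fits: limma without a trend gave 8, DESeq2 and edgeR 9 each, and limma without a term for the mouse 7. DESeq2 called 1 gene of the list in the VTA and edgeR 0, and both called 0 in the region difference. Slc6a3 had 23280.0, 18334 and 17520.3 in the wild-type and 10273, 16543 and 2644 in the Vdr-/- VTA, and Th had 8652, 6874 and 6634 and 4057, 6504 and 1181 (effect -1.22, adjusted p = 0.351, limma). Mouse 8 lay close to the wild-type range, mouse 7 lower, and mouse 9 far lower, and the Slc6a3 effect of -1.35 was -0.58 without mouse 9. Aldh1a1, an aldehyde dehydrogenase of a subset of these neurons, had 9330.3, 8632 and 8384 against 4979, 7741 and 3087, in the same order of mice. Summed CPM of the list were 4284, 3580 and 3447 in wild-type and 2108, 3349 and 939 in Vdr-/- mice. In bulk punches, fewer dopamine neurons and less RNA per neuron cannot be told apart.

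Markers of tissue next to the VTA differed between the same libraries. Those of the hypothalamus and mammillary nuclei summed to 98.3, 175 and 59.5 CPM in wild-type and to 392, 73.3 and 308 in Vdr-/- mice, high in mice 7 and 9, in which the dopamine list was low. Those of the thalamus summed to 400.0, 486 and 506 and to 416, 408 and 932, high in mouse 9. Markers of serotonin neurons, which lie behind the VTA, were lower along with the dopamine list, in 5 of 5 tested with a median of -1.56 (log2), and summed to 62.6, 70.0 and 52.0 CPM against 40.7, 54.6 and 33.5, lowest in mice 9 and 7. Of the hypothalamic genes, 8 of 15 were above the filter in the VTA and 7 of those were higher in Vdr-/- mice. The part that the placing of the punch has in the dopamine result was not tested. Without mouse 9 the median of the list in the VTA was -0.47 and that of the region difference 0.52, and without mouse 8 the VTA median was -1.28, with 7 genes called in a fit that called 2.25% of all genes. In morphine mice the list lay the other way in the VTA, higher in Vdr-/- mice in 25 of 25 genes with a median of 0.90, 21 at an unadjusted p under 0.05 and 0 called.

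**Figure D5:**
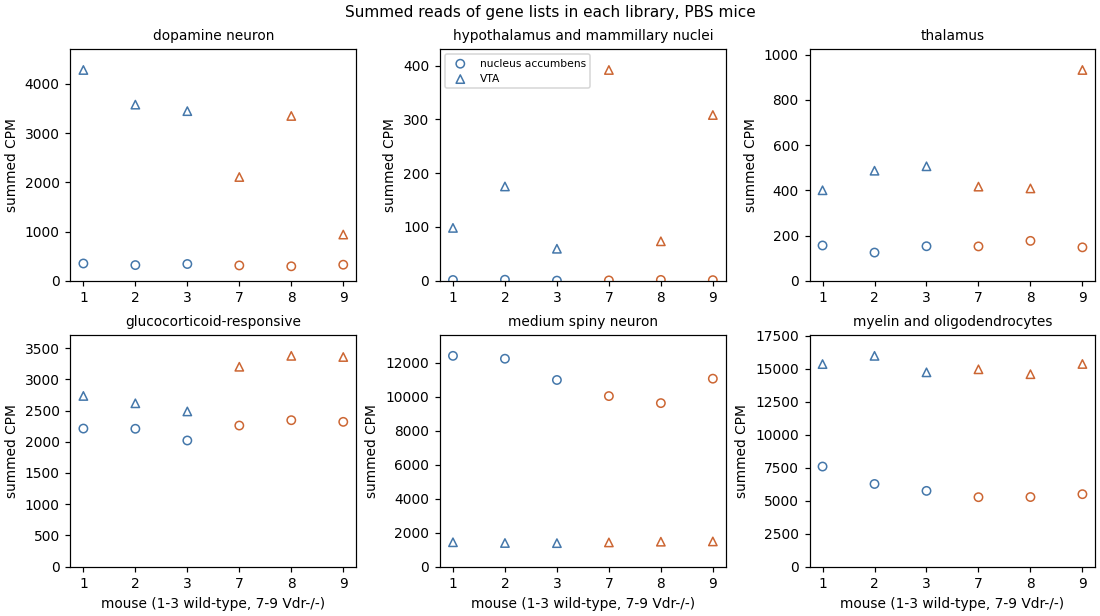
Summed CPM of 6 gene lists in each library of the PBS mice, circles for the nucleus accumbens and triangles for the VTA, blue for wild-type and orange for Vdr-/- mice. Dopamine neuron genes in the VTA are lowest in mouse 9 (939) and hypothalamic genes highest in mouse 7 (392), while the glucocorticoid-responsive list separates the genotypes in both regions.

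On the receiving side, genes of medium spiny neurons were slightly lower in the Vdr-/- nucleus accumbens, 23 of 25 with a median of -0.19 (log2), 6 at an unadjusted p under 0.05 and 0 passing in limma, DESeq2 or edgeR. The effect in the nucleus accumbens minus that in the VTA had a median of -0.30 and was negative in 22 of 25, with 1 at an unadjusted p under 0.05, against 6 in limma without a trend and in DESeq2 and 7 in edgeR. Markers of other cells moved in the same libraries. Those of cortical excitatory neurons were higher in the Vdr-/- nucleus accumbens in 12 of 15 (median 0.30, 0 at an unadjusted p under 0.05), and summed to 798 to 1505 CPM in wild-type and 1142 to 1734 in Vdr-/- mice. Those of endothelial and mural cells were lower there, with a median of -0.37. Their part in the result was not tested. Drd1 and Drd2, the main dopamine receptors there, had -0.28 and -0.34 in the nucleus accumbens, and Penk, the enkephalin precursor, had -0.29. Pde1b, a cyclic nucleotide phosphodiesterase, had effects of -0.24 there and 0.26 in the VTA (region difference -0.50, unadjusted p = 0.0156, limma). Of 18 genes of dopamine receptor signaling, 15 were lower there, against 5 in the VTA, with medians of -0.12 and 0.09.

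Genes that neuronal activity induces within minutes to hours, such as Fos and Junb, also lay lower in the nucleus accumbens. In the nucleus accumbens 29 of 38 were lower in Vdr-/- mice (median -0.19, 11 at an unadjusted p under 0.05), in the VTA 15 of 37 (median 0.04). Single mice moved both medians. That of the nucleus accumbens was -0.37 without mouse 7, -0.33 without mouse 2 and -0.09 without mouse 8, and that of the VTA was -0.04 without mouse 2, with 24 of 37 lower. Over all mice the region difference had a median of -0.25, with 7 at an unadjusted p under 0.05 and 0 passing in limma, DESeq2 or edgeR. In the same order of regions Fos had -0.50 and -0.34, Arc had -0.80 and -0.34, and Nr4a1, a nuclear receptor, had -0.69 and 0.21. Junb had 666, 634 and 749 against 535, 408 and 542 in the nucleus accumbens, where the genotypes did not overlap, as did 16.9% of all genes, and 160.2, 105 and 165 against 135, 145 and 150.3 in the VTA, where they did.

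Further gene groups shifted by less than the dopamine list. Endothelial and mural genes were lower in the Vdr-/- nucleus accumbens in 15 of 17 (median -0.37, 9 at an unadjusted p under 0.05 and 0 passing), where their summed CPM, 505 to 528 in wild-type and 418 to 457 in Vdr-/- mice, did not overlap. In the VTA 13 of 17 were lower (median -0.10, 7 at an unadjusted p under 0.05). Myelin and oligodendrocyte genes were lower in the Vdr-/- nucleus accumbens in 22 of 22 (median -0.28, 12 at an unadjusted p under 0.05, 0 passing in limma or edgeR and 2 in DESeq2), where their summed CPM were 5741 to 7587 in wild-type and 5263 to 5491 in Vdr-/- mice, while in the VTA 12 of 22 were lower (median -0.05) and Ugt8a, which makes the galactolipids of myelin, fell by 0.72. What part the share of white matter in the punches has in this was not tested. Microglial genes were lower in 16 of 16 in both regions, with medians of -0.18 and -0.17, 3 and 4 at an unadjusted p under 0.05 and 0 passing in limma. The median of the cholesterol synthesis genes was 0.07 in the nucleus accumbens, against -0.18 in the VTA, where Hmgcs1, an early enzyme of the pathway, fell by 0.35. Among endoplasmic reticulum chaperones and their regulators, 16 of 20 were lower in the nucleus accumbens and 17 of 20 in the VTA (medians -0.17 and -0.16), and the transcription factor gene Atf4 fell by 0.44 in the VTA. Heat shock genes had medians of -0.15 and -0.22. In the circadian list Tef and Ciart rose in the VTA, by 0.30 and 0.76, and the medians were -0.03 and 0.15. Oxidative phosphorylation was level in both (medians -0.01 and 0.01, 0 of 32 at an unadjusted p under 0.05 in either region).

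Genes of vitamin D action itself did not move as a group. Of the list of receptor partners, metabolic enzymes and known targets, 9 of 19 tested genes were higher in the nucleus accumbens and 8 of 19 in the VTA, with medians of -0.03 in both, 2 and 3 at an unadjusted p under 0.05 and 0 passing in limma. Rxrg, a retinoid X receptor and so a partner of the vitamin D receptor, had 1292, 1307 and 1345 against 956, 776 and 961 in the nucleus accumbens and 136, 149 and 156 against 163, 185 and 163 in the VTA. The genotypes did not overlap in either region and lay in opposite directions, but the region difference of -0.77 (95% interval -1.29 to -0.24, unadjusted p = 0.0114, limma) failed the adjustment. Opioid receptor and peptide genes had medians of 0.06 and 0.00. Oprk1, the kappa opioid receptor, had 841, 934 and 919 against 1016, 1029 and 1212 in the nucleus accumbens and 699, 745 and 584 against 472, 567 and 377 in the VTA, again apart in opposite directions, with a region difference of 0.80 (unadjusted p = 0.0151, limma). Oprm1, the mu receptor at which morphine acts, had 282, 15.7 and 239 against 185, 247 and 274 in the nucleus accumbens. Its effect of 1.16 there turned to -0.16 without wild-type mouse 2, the library that stood apart, and it had -0.22 in the VTA. Oprd1, the delta receptor, had -0.01 and 0.12.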

How the data were processed

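The authors called bases with CASAVA 1.8, trimmed reads with Trimmomatic 0.36 and mapped them with STAR 2.4.2a to GRCm38 with the GENCODE annotation. They counted reads per gene with STAR's GeneCounts option and normalized the counts with DESeq2. The kit was directional, but the strand setting of the count is not given in the sources used here. The deposited values are signal, reads divided by the DESeq2 size factor of a table. In all 12 PBS libraries 100% of the values were whole reads (tolerance 0.01). Tables of the 2 regions were normalized separately, and a factor of a table drops out of the contrasts between genotypes. The series has 8 deposited tables. The 4 that compare genotypes were used, and the other 4, which compare morphine with PBS, were not. Columns of other samples numbered 0.

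A two-sided limma 3.58.1 fit in R 4.3.3 (lmFit, then eBayes with its trend option) on log2(value + 1) took genes with a mean of at least 10, with Benjamini-Hochberg adjustment over all of them and a threshold of 0.05. "Called" and "passed" mean an adjusted p under that threshold. Region differences and means were taken within mice, since the labels give both regions of a mouse the same number. Deviations of both regions of a mouse from the group means correlated at 0.0905 to 0.169 in wild-type and at -0.00953 to 0.0894 in Vdr-/- mice. The median SE was 0.128 (log2) in the nucleus accumbens, 0.0965 in the VTA and 0.164 for the difference. Counts of recovered reads were also tested with DESeq2 1.42.0 and edgeR 4.0.16. The fits were tested on simulated data. An exact permutation test of 3 mice against 3 cannot go below 0.1. Positions come from GENCODE on GRCm38, with 29914 of 29980 identifiers matched. p-values measure the spread between these mice only.

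Members and lists were chosen with earlier results of these data known. Genes were named by rule: Vdr, the genes called in both regions, the 10 smallest p of the region difference, the 8 largest non-overlapping effects called in each region alone, up to 4 genes per list by p, and the 10 largest further effects on the mean of both regions. Others were named after their values were seen: Fkbp5 and Hif3a on the mean of both regions, Txnip, Ndnf, Tuba1a, Aldh1a1, Th, and the list members added for their function (such as Fos, Arc, Sgk1, Nr3c1 and Ugt8a). One gene and one set of sequences are not reported here.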

Additional observations from a re-analysis of the deposited data

Results flagged for a closer look

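Region differences of 3 genes passed in DESeq2 on recovered reads, with a term for each mouse, but not in limma or edgeR. Cdkn1a had -1.32 (log2, effect in the nucleus accumbens minus that in the VTA, DESeq2 adjusted p = 0.00252), against -1.29 in limma (adjusted p = 0.864) and an edgeR adjusted p of 0.777. Arl4d had -1.20 (DESeq2 adjusted p = 0.00252), against -1.18 in limma and an edgeR adjusted p of 0.777. Ndnf, a secreted neurotrophic factor named here after its values were seen, had 1.60 (DESeq2 adjusted p = 0.000426), against 1.64 in limma and an edgeR adjusted p of 0.870. Its normalized values were 298, 171 and 357 in the wild-type and 691, 691 and 328 in the Vdr-/- nucleus accumbens, and 2563, 2321 and 2189 against 1524, 2210 and 1097 in the VTA. The genotypes overlapped in both regions, and the differences within mice did not, at -3.10, -3.75 and -2.61 against -1.14, -1.67 and -1.74. Mouse 9, in which dopamine neuron genes of the VTA were lowest, also had the lowest Ndnf there. Without each mouse in turn the limma value of Ndnf lay between 1.34 and 1.91. Read in the morphine mice, Cdkn1a had 0.04 and 0.06 (log2) in the nucleus accumbens and the VTA, and Arl4d had -0.18 and -0.29. Their VTA effects in PBS mice were 1.62 and 1.24. Ndnf had 0.27 and 1.11 in morphine mice, so its VTA effect lay opposite to the -0.61 of PBS mice. None of these genes was called in morphine mice, where the region difference was not tested.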

How the results depend on the processing

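Other settings mostly moved the number of calls. In the nucleus accumbens the main count of 11 became 65 with DESeq2 on recovered reads and ran from 2 to 28 with 1 mouse left out at a time. In the VTA 64 became 17 in limma without a trend and 282 with DESeq2, and 13 to 370 without 1 mouse. On the mean of both regions 33 became 14 to 34 without 1 mouse. DESeq2 was fitted to the summed reads of both regions in place of that mean, and called 265. The genes called in both regions, 9, became 5 in limma without a trend and 34 with DESeq2, and 2 to 11 without 1 mouse. The region difference, 0, became 3 with DESeq2, and 2 of those genes were also called in 1 region by DESeq2. It stayed at 0 under every other setting run: edgeR, a pseudocount of 5, a mean of at least 1, 50 or 10 in each table, no trend, quantile normalization, TMM and each mouse left out. Without the replicate block, that is with no term for the mouse, the region difference also had 0 calls and 864 genes at an unadjusted p under 0.05. The block changed no call of the region difference. A setting chosen after seeing the data took limma's prior variance for the region difference from the mean level in place of the mean difference between the regions. It also gave 0 calls, with 871 genes at an unadjusted p under 0.05 and a smallest adjusted p of 0.833. In it 9 of the 25 dopamine neuron genes and 6 of the 25 medium spiny neuron genes had an unadjusted p under 0.05, against 1 and 1 as reported. The counts were 8 and 6 in limma without a trend, 9 and 6 in DESeq2, 9 and 7 in edgeR and 7 and 5 without the block, so the 1 and 1 were the lower values. No effect called in the nucleus accumbens (11), the VTA (64) or the mean (33) changed direction under a setting that tested it. The cause of these shifts was not tested. With 3 mice per genotype the median 95% half-width of the region difference was 0.40 (log2) before adjustment. A call needed a larger difference, which limits what could be detected.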
